A study of Mus musculus with 80 samples.

Results

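The cells described here are freshly sorted hematopoietic stem cells (HSCs) of young and old mice whose transcripts of S-phase genes were high. They were chosen by their own counts: a cell was taken when its unique molecular identifiers (UMIs, each standing for 1 captured transcript) summed to at least 6 over Ung, Uhrf1, E2f1, Hells, Chek1, Mcm5 and Ccne2 and to fewer than 10 over Mki67, Top2a, Ube2c, Ccnb2, Birc5, Hmmr and Cenpf. This took 160 cells of the young library and 116 of the old library, 276 of the 3862 fresh cells kept and of the 8201 cells kept in all 4 single-cell libraries of the study. Kept fresh cells had at least 800 detected genes and at most 5% of UMIs from mitochondrial genes. Cells with fewer than 3 UMIs over each of the 7-gene sets, 788 young and 2476 old, served as the non-cycling class, and cells with at least 10 mitotic UMIs, 71 young and 73 old, as the mitotic class.

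The study asked how old HSCs differ among themselves and from young HSCs. Long-term HSCs were sorted from bone marrow of male C57BL/6 mice as lineage-negative, Sca-1+, c-Kit+, CD48-, CD34-, CD150+ cells, with no transgene or deletion. The 2 fresh single-cell libraries, 1 per age, were made with 10x 3' chemistry from untreated young mice (2 to 3 months) and old mice (23 months). Bulk RNA libraries, 3 per group and with no part in choosing the cells, came from untreated young mice (2 to 3 months) and untreated old mice (22 to 24 months), from old HSCs sorted into 4 groups by surface CD150 (G1 lowest to G4 highest, 25% of cells each), and from CD150low and CD150high old HSCs recovered 4 days after transplantation into irradiated mice. For context, 2 more single-cell libraries held the progeny of transplanted CD150low and CD150high old HSCs at day 14. Because each age had 1 single-cell library, differences between ages in single cells carry no test. The 95% intervals given with them cover counting error only. They are exact binomial for shares, by Newcombe's method for differences of shares, exact Poisson for summed counts and exact conditional for ratios.

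Before a cell copies its DNA, the origin recognition complex and CDC6 load the MCM helicase onto origins, a step called licensing. Cyclin-dependent kinases then release E2F transcription factors from the retinoblastoma family, and E2F drives genes for the helicase, polymerases, sliding clamp, nucleotide synthesis and chromatin assembly. HSCs are known for resting outside the cycle most of the time, and the few that cycle are therefore a small share of a sorted sample. Of the 7 genes that chose the cells, Hells encodes a chromatin remodeller, Mcm5 a subunit of the helicase, Ung the uracil-DNA glycosylase that removes uracil from DNA, Uhrf1 the partner of the maintenance methyltransferase, E2f1 an E2F factor, Chek1 the replication checkpoint kinase and Ccne2 cyclin E2.

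To show what the chosen genes share in sequence, promoters of RefSeq genes (GRCm38.p6, 250 bases before to 50 after each start) were searched on both strands for the E2F words TTTCCCGC, TTTCGCGC, TTTGCCGC and TTTGGCGC. An E2F word was found in 3 of the 6 S-phase rule genes with a window, Uhrf1, Hells and Mcm5, and in 0 of the 7 mitotic rule genes. The word TTTGAA, the core of the cell cycle homology region (CHR) of genes with late cell cycle expression, was found in 6 of the 7 mitotic and in 0 of the 6 S-phase rule genes. No window was given for Ccne2. The share of all 27025 genes with a window that held a word was 2.6% for E2F and 20.2% for CHR. Below are stretches with the word in capitals, on the gene's strand, first for S-phase rule genes, then for those of the 4 genes with the most UMIs in each of the licensing, initiation and polymerase lists whose word lay before the start (those of Mcm3 lay after it), and then for the mitotic rule genes whose word lay before the start, each with the word farthest from the start. Words on the other strand appear as their reverse complement, such as TTCAAA in Ube2c. Where a second word overlapped the first on the other strand (Mcm5, Mcm6), both are in capitals, and the Mki67 stretch holds a further TTTGAA in lower case.
Uhrf1, chr17:56304108-56304155, + strand, 185 bases before the start: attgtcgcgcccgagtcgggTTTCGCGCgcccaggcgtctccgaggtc
Hells, chr19:38930908-38930955, + strand, 62 bases before the start: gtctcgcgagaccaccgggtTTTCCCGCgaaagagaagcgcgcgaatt
Mcm5, chr8:75109336-75109387, + strand, 153 bases before the start: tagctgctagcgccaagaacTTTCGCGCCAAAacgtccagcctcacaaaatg
Mcm6, chr1:128359784-128359835, - strand, 110 bases before the start: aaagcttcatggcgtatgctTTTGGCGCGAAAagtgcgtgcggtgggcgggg
Mcm7, chr5:138172021-138172068, - strand, 165 bases before the start: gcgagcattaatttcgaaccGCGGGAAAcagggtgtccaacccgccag
Topbp1, chr9:103305178-103305225, + strand, 129 bases before the start: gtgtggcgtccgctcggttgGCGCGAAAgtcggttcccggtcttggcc
Pola1, chrX:93632266-93632313, - strand, 138 bases before the start: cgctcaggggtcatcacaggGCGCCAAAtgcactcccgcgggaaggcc
Pole4, chr6:82652881-82652928, - strand, 34 or 43 bases before the start, for 2 starts: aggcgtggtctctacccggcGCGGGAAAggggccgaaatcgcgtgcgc
Mki67, chr7:135716470-135716515, - strand, 116 bases before the start: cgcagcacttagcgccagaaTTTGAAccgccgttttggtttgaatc
Top2a, chr11:99024343-99024388, - strand, 179 bases before the start: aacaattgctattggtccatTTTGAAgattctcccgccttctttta
Ccnb2, chr9:70421696-70421741, - strand, 167 bases before the start: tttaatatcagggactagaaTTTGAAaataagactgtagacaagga
Ube2c, chr2:164769880-164769925, + strand, 29 bases before the start: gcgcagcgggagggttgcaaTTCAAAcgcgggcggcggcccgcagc
A match describes letters in these windows and is neither a shown binding site nor a cause of any value below.

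The chosen cells were 14.5% (95% interval 12.5 to 16.7) of kept young cells, 160 of 1104, and 4.21% (3.49 to 5.02) of kept old cells, 116 of 2758. The young share was 3.45 times the old one, a difference of 10.3 percentage points (8.17 to 12.6). Mitotic cells were 6.43% of young and 2.65% of old cells, and non-cycling cells 71.4% and 89.8%. Chosen cells were also deeper than non-cycling cells: their median UMI count was 21116.5 against 13057 in the young and 20500 against 12910.5 in the old library. A limit in UMIs is passed more easily by a deep cell, so each kept cell was also thinned to 9514 UMIs, leaving out 91 young and 295 old cells with fewer. Then 10.96% of young (111 of 1013) and 3.53% of old cells (87 of 2463) passed, a difference of 7.43 points (5.47 to 9.60). In the day 14 libraries the same sums were met by 17.3% of 2406 CD150low and 16.5% of 1933 CD150high progeny cells, with the study's minimum of 2000 detected genes there, and 51.8% and 67.8% were mitotic.

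**Figure D1:**
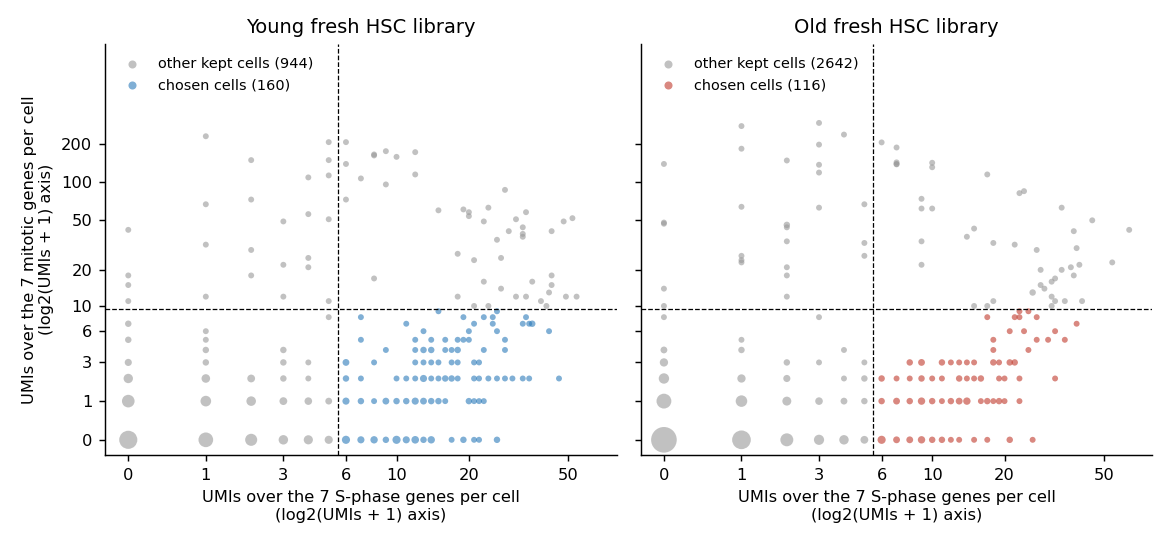
Each point stands for the cells of the young (left) or old (right) fresh library with a given sum of UMIs over the 7 S-phase genes (x axis) and over the 7 mitotic genes (y axis), both on log2(UMIs + 1) axes, with larger points for more cells and dashed lines at the limits of the rule. The 160 young and 116 old chosen cells are coloured, and both sums ran on without a gap across the limits.

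The cells lay along a continuum and not in a separate cloud. Chosen young cells had 6 to 46 S-phase UMIs (median 13) and old ones 6 to 39 (median 12.5), with a median of 5 of the 7 rule genes seen in both. The mitotic sum was 0 in 53 of the young and 31 of the old chosen cells and between 1 and 9 in the other 107 and 85. Just inside the S-phase limit, cells with a sum of 6 had 7805 CPM (UMIs per 1000000 UMIs, pooled over cells) of replication genes in the young and 7843 in the old library, against 8105 and 7961 CPM in cells with a sum of 5. At the mitotic limit the same value was 15224.3 CPM in young cells with a sum of 9 and 18370.0 with a sum of 10, and 14459.0 and 14862.6 CPM in old cells, each from 2 or 3 cells.

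The rule genes themselves, given here as a description since they chose the cells, were carried mainly by Hells, with 27.7% of the rule's UMIs in young and 31.1% in old chosen cells, and Mcm5, with 23.3% and 20.7%. Hells was 12.4 CPM in young non-cycling, 191 in chosen and 182 in mitotic cells, and 6.57, 207.5 and 176 CPM in old cells. Ung was 2.78, 115 and 62.0 CPM in young and 2.14, 107 and 71.5 CPM in old cells, so that it was highest in the chosen class of each age. Ccne2, at 19.9 and 24.9 CPM in young and old chosen cells, was below its 57.6 and 52.1 CPM in mitotic cells. Uhrf1 was likewise 85.2 CPM in chosen and 117 in mitotic young cells, and 69.4 and 106 CPM in old cells.

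Whether the name S phase fits was checked on genes the rule did not count. The 123 genes of 8 replication lists (origin licensing, replication initiation, DNA polymerases, clamp and lagging strand, nucleotide supply, chromatin copying, fork protection and repair, cyclins and E2F) summed to 4597 CPM in young non-cycling, 11380.1 in chosen and 13930.6 in mitotic cells, and to 4118, 11379.9 and 13337.3 CPM in old cells. Per cell the median was 11192.5 CPM in young chosen against 4444 in young non-cycling cells, and 11076.3 against 4046 in old cells. Of the chosen cells, 5 young and 0 old ones lay below the 95th percentile of non-cycling cells of their age. Histone genes did not follow. The 65 replication-dependent histone genes, which supply the proteins for new nucleosomes, summed to 1321 CPM in young chosen cells against 1595 in non-cycling and 11872.9 in mitotic cells, and to 649 CPM in old chosen cells against 813 and 7318. Cyclin A2 (Ccna2), which acts through S and G2 phase, was 2.31 and 3.68 CPM in young and old chosen cells, above the 0.0958 and 0.367 CPM of non-cycling cells and below the 94.8 and 111.5 CPM of mitotic cells. The ribonucleotide reductase subunit Rrm2 was 17.9 and 17.6 CPM, between 2.20 and 1.19 CPM in non-cycling and 114 and 127 CPM in mitotic cells (both genes were picked after their values were seen). Cells that had at least 6 S-phase UMIs but fell to the mitotic class, 47 young and 45 old, held 13201 and 8496 CPM of histone and 16307.7 and 15914.9 CPM of replication genes. The rule thus took cells with high S-phase genes and left out those with high histone transcripts, and the name S phase was borne out only in part. The cells are called S-gene-high cells from here on. Most histone mRNAs made in S phase carry no poly(A) tail, so poly(A)-primed counts hold an unknown part of them.

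**Figure D2:**
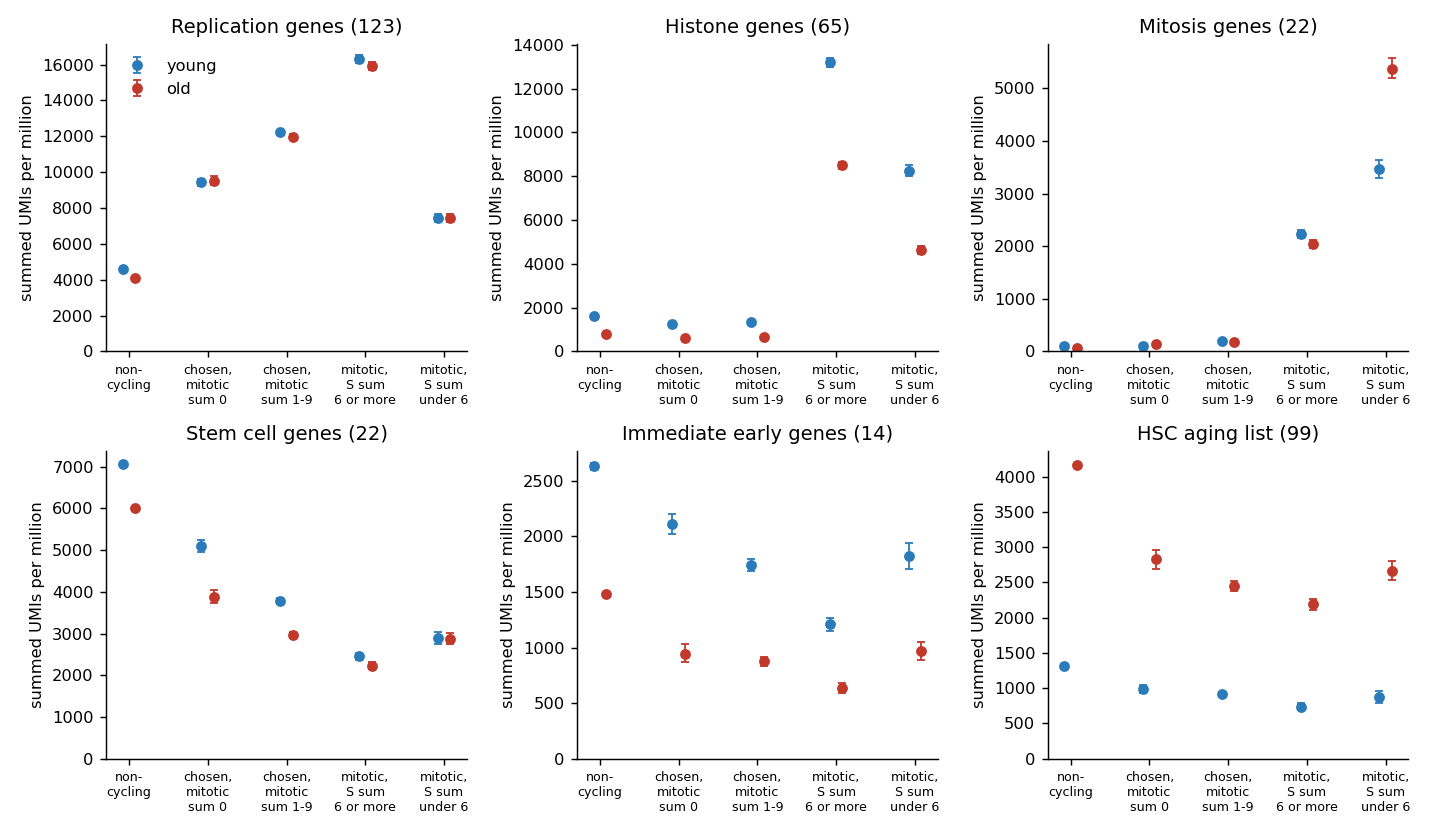
Summed CPM of 6 gene lists (y axis, number of genes in each title) in 5 classes of cells (x axis) of the young (blue) and old (red) fresh library, 1 library per age, with exact 95% Poisson intervals. Replication genes were higher in both chosen classes than in non-cycling cells. Histone genes were highest in mitotic cells with an S-phase sum of at least 6, at 13201 CPM (young) and 8496 CPM (old). Mitotic cells with an S-phase sum under 6 held 8244 and 4623 CPM.

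UMIs of HSC genes and also of genes of other cell types were found in the S-gene-high cells. Free RNA in the droplets can give such UMIs too, its share was not measured, and the UMIs of other cell types are not read as expression by these cells. The HSC transcription factor gene Hlf was 249 CPM in young and 200 in old S-gene-high cells, against 521 and 381 in non-cycling cells. Kit, the stem cell factor receptor, was 267 CPM in young and 235 in old S-gene-high cells, against 294 and 265 in non-cycling cells. Cd48, whose protein the sort excluded, was at 0.867 CPM in young and 0 UMIs in old S-gene-high cells, which with 3 UMIs as the limit allows up to 1.23 CPM there, against 0.671 and 0.0917 CPM in non-cycling cells. Cd34 was at 91.0 and 51.5 CPM, against 74.8 and 44.4. Of 10 macrophage genes, 3 in young and 8 in old S-gene-high cells were at 0, C1qa was 5.49 CPM in young and 0 UMIs in old cells, against 2.30 and 1.04 CPM in non-cycling cells, and the sum of 243 and 247 CPM was nearly all Lyz2 (226 and 242), below the 302 and 265 CPM of non-cycling cells. The 7 neutrophil genes summed to 9.25 and 2.86 CPM, against 8.24 and 4.01 in non-cycling cells, led by S100a9. The granulocyte-monocyte list was mainly Prtn3, at 296 and 511 CPM against 488 and 901 in non-cycling cells, and the erythroid list mainly the globin gene Hbb-bt, at 133 and 44.5 CPM against 95.4 and 67.1. Lymphoid genes summed to 81.8 and 70.7 CPM, against 60.3 and 43.5 in non-cycling cells. They were led by Nkg7, a granule gene of cytotoxic cells, at 43.1 and 40.0 CPM against 12.2 and 7.19. Cd79b, the other measured lymphoid gene, was lower by value than in non-cycling cells, at 38.1 and 30.6 CPM against 47.9 and 35.5. Scrublet marked 2 of the young and 0 of the old S-gene-high cells as doublets (12 and 5 in the whole libraries, the latter so few that the caller may not have worked there), and 1 barcode was shared between the kept cells of both libraries.

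Against non-cycling cells of the same library, 200 of 6361 genes (3.14%) were over 2-fold higher in young and 257 of 6190 (4.15%) in old S-gene-high cells, the 14 rule genes left out of these counts and a level of 20 CPM required in one of the classes. Over 2-fold lower were 129 (2.03%) and 140 (2.26%). In both libraries together 173 of 5967 genes (2.9%) were over 2-fold higher and 60 (1.01%) over 2-fold lower. The cells had been chosen by transcripts that vary with these, so the values describe the class and are not a test. The median log2 ratio over all genes measured was -0.02 in young and 0.01 in old cells.

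Among the replication lists, 75 of 105 measured genes were over 2-fold higher in young and 79 of 102 in old S-gene-high cells, 0 were over 2-fold lower, and the median log2 ratio was 1.58 and 1.93. For origin licensing it was 9 of 13 genes in young and 11 of 13 in old cells, with medians of 2.37 and 2.71. Its most abundant members were subunits of the helicase. Mcm3 was 338 CPM in young S-gene-high against 58.6 in non-cycling cells and 303 against 43.2 CPM in old cells. Mcm6 was 277 against 53.7 CPM in young and 246 against 35.2 in old cells. Mcm7 and Mcm4 were at log2 ratios of 2.40 and 2.70 in young and 2.58 and 3.22 in old cells. Mcm3 had a UMI in 160 of 160 young and 116 of 116 old S-gene-high cells, and in 47.8% and 39.6% of the shallower non-cycling cells.

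Replication initiation genes, which turn the loaded helicase on, were over 2-fold higher in 6 of 8 young and 7 of 7 old measured members. Topbp1, a scaffold for helicase activation, was 130 against 35.7 CPM in young and 145 against 36.1 in old cells, and Gins2, a subunit of the active helicase, was at log2 ratios of 2.71 and 3.13. DNA polymerase genes passed in 9 of 12 (young) and 8 of 12 (old). The primase subunit Prim1 was 99.4 against 16.7 CPM in young and 96.8 against 9.91 in old cells, while the small polymerase epsilon subunits Pole3 and Pole4 stayed under 2-fold, at log2 ratios of 0.83 and 0.70 in young and 0.71 and 0.74 in old cells.

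Clamp and lagging strand genes passed in 13 of 15 (young) and 14 of 15 (old). Pcna, the sliding clamp, was 253 against 67.9 CPM in young and 247 against 53.4 in old cells. Lig1, the ligase that joins Okazaki fragments, was 220 against 23.8 and 225 against 16.9 CPM. Of the clamp loader genes Rfc2 was at log2 ratios of 1.51 and 1.66 and Rfc1 at 0.85 and 1.13. Nucleotide supply genes passed in 9 of 10 measured genes in both libraries. Dut, which clears dUTP, had the most UMIs of the replication genes over both libraries, at 395 CPM in young and 446 in old S-gene-high cells against 79.8 and 79.4 in non-cycling cells. The nucleoside diphosphate kinase Nme1 and the dCTP pyrophosphatase Dctpp1 were at log2 ratios of 1.06 and 1.52 (young) and 1.01 and 1.50 (old).

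Genes for copying chromatin passed in 10 of 15 in both libraries, with medians of 1.71 and 1.98. Dnmt1, which copies DNA methylation, was 245 against 61.3 CPM in young and 257 against 48.1 in old cells. Ssrp1 and Supt16, the subunits of the FACT histone chaperone, were under 2-fold, at log2 ratios of 0.75 and 0.57 in young and 0.82 and 0.80 in old cells. Fork protection and repair genes passed in 14 of 17 (young) and 13 of 16 (old), with medians of 2.43 and 3.39. Tipin, part of the fork protection complex, was 164 against 31.9 and 155 against 19.2 CPM, and Dtl, which targets the licensing factor CDT1 for destruction, was at log2 ratios of 2.43 and 3.77. Among cyclins and E2F genes only 5 of 15 (young) and 7 of 14 (old) passed. Cdk6, a kinase of the G1 phase, was 200 against 76.9 CPM and 156 against 62.8, and Cdk4 355 against 188 and 356 against 172. Its partner cyclin D2 (Ccnd2) was lower by value in both, 433 against 475 CPM and 307 against 362.

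Among the 10 genes with the largest ratios in both libraries were Tk1, Fignl1, Rad51ap1, Clspn, Cenpk, Dscc1, Cenpm, Timeless and Chaf1a. Thymidine kinase Tk1 was 40.5 CPM in young and 56.0 in old S-gene-high cells against 0.479 and 0.428 CPM in non-cycling cells, and had a UMI in 37.5% and 44.0% of S-gene-high against 0.635% and 0.565% of non-cycling cells. The DNA repair genes Rad51ap1 and Fignl1 were at log2 ratios of 4.40 and 4.44 in young and 4.68 and 4.93 in old cells. Clspn, which relays the fork checkpoint, was at 4.11 and 4.94, and the fork protection gene Timeless at 3.50 and 4.42. Chaf1a, which loads histones onto new DNA, was at 3.49 and 3.46. Cenpk and Cenpm, 2 components of the centromere-bound complex, were at 3.89 and 3.54 in young and 4.26 and 3.89 in old cells. Each gene named so far in this paragraph was higher by value in mitotic than in S-gene-high cells, except Timeless in old cells. Tk1 was 173.5 CPM in young and 180 in old mitotic cells, and Clspn 147 and 151. Timeless was 56.0 and 43.6 CPM in mitotic against 54.0 and 53.5 in S-gene-high cells. Of the mitotic rule genes Top2a, which the rule capped, was 76.9 and 74.7 CPM against 713 and 644 in mitotic cells, and Mki67 11.3 and 9.80 against 485 and 439.5. Of 22 further mitosis genes the sum was 175 and 176 CPM, against 2564 and 3052 in mitotic cells, with Cdk1 the most abundant.

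**Figure D3:**
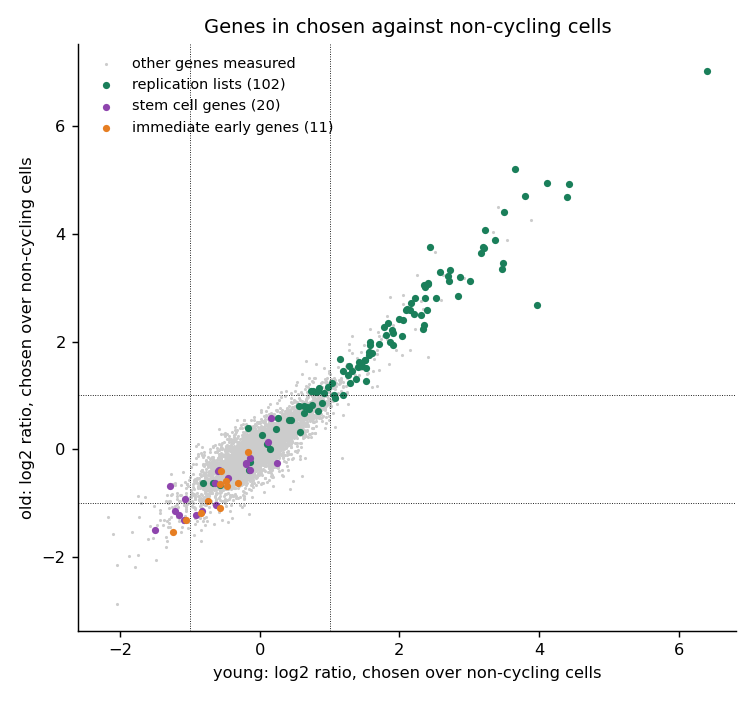
Log2 ratio of CPM in S-gene-high over non-cycling cells in the young (x axis) and old (y axis) library for each gene measured in both, 1 library per age and the rule genes left out. Replication genes (green) lie mostly beyond 2-fold (dotted lines) at the upper right, and stem cell (purple) and immediate early genes (orange) mostly below 0 in both libraries.

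Of 20 measured stem cell genes 6 were over 2-fold lower in young and 7 in old S-gene-high cells, with 0 over 2-fold higher and medians of -0.61 and -0.58. Above 0 at both ages were Gfi1b and Ctnnal1, at log2 ratios of 0.12 and 0.16 in young and 0.14 and 0.57 in old cells (both genes were picked after their values were seen). Procr, the endothelial protein C receptor of HSCs, was 52.6 CPM in young S-gene-high against 148 in non-cycling cells and 84.1 against 238 in old cells. The transcription factor gene Hlf was 249 against 521 CPM and 200 against 381, and Txnip, which restrains glucose uptake and redox signalling, 458 against 1024 and 659 against 1527. Ifitm1, an abundant membrane gene of HSCs, was 1783 against 3161 CPM and 829 against 1835. Kit, as above, was nearly level. Of the cycle inhibitors, Cdkn1c (p57), which holds HSCs in rest, was 53.8 against 112 CPM in young and 56.8 against 119 in old cells, and Btg1, an antiproliferative gene, at log2 ratios of -0.83 and -1.02. The 10 genes with the smallest ratios in both libraries, ranked by the weaker ratio of each gene, were Pqlc3, Smtnl1, Sdc4, Tcp11l2, Plcl1, Trib3, Ccl4, Tecpr1, Tnfsf12 and Procr. Their log2 ratios were -1.49 to -2.10 in young and -1.50 to -2.87 in old cells, all but Procr from 13 to 59 UMIs in each library. In a single library the lowest ratio was -2.71 in young and -3.53 in old cells.

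Immediate early genes, the first to respond to a stimulus such as cell handling, were lower by value in 12 of 12 young and 11 of 11 old measured members, 3 and 4 of them over 2-fold. Jun, the most abundant, was 497 against 617 CPM in young and 266 against 409 in old cells, and their sum was 1854 against 2633 and 892 against 1482 CPM. Ribosome biogenesis genes had medians of 0.66 and 0.65, with 1 of 14 and 2 of 13 over 2-fold. Nucleolin (Ncl) was 1546 against 957 CPM in young and 1329 against 850 in old cells, and the nucleolar chaperone Npm1 at log2 ratios of 0.33 and 0.35. Nuclear-encoded respiratory chain genes had medians of 0.28 and 0.38 (86 and 85 measured), the 13 mitochondrially encoded genes -0.15 and -0.33, and 86 ribosomal protein genes -0.08 and -0.09. Chaperone genes stood at 0.28 and 0.20, interferon genes at -0.51 and -0.43, and p53 target genes at 0.09 and -0.26, few of them over 2-fold.

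Within the S-gene-high cells these lists varied with the mitotic sum, which ranges from 0 to 9 there by the rule. Replication genes were 9422 CPM in the 53 young cells with a mitotic sum of 0 and 12226.9 in the 107 cells with 1 to 9, and 9522 and 11985.8 CPM in old cells. Stem cell genes were 5101 and 3783 CPM in young and 3882 and 2968 in old cells, in between the 7073 and 5999 CPM of non-cycling and the 2569 and 2430 of mitotic cells. Procr was 72.7 and 43.9 CPM in young and 130 and 69.3 in old cells.

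Some genes of megakaryocytes, the platelet-forming cells that old and young HSCs can give rise to directly, were higher than in non-cycling cells. Itga2b, the platelet integrin CD41, was 46.5 against 15.2 CPM in young and 40.8 against 18.4 in old cells. Platelet factor 4 (Pf4) was 263 against 49.7 CPM and 183 against 55.6, but 5 cells held 85.1% of the young and 50.8% of the old Pf4 UMIs in the class, and 1 young cell held 571. Vwf was at log2 ratios of -0.52 and -0.68. The 8 megakaryocyte genes summed to 138 CPM in young non-cycling, 405 in S-gene-high and 234 in mitotic cells. In old cells the sums were 167, 315 and 344 CPM. S-gene-high cells with a mitotic sum of 0 held 156 CPM in young and 199 in old, and those with 1 to 9 held 513 and 353. Gata1, an erythroid and megakaryocyte transcription factor, was 10.4 CPM in young S-gene-high against 1.53 in non-cycling cells and 3.68 against 0.122 in old cells. These levels are under the 20 CPM minimum. Gata1 had a UMI in 22 young and 6 old S-gene-high cells, and 5 cells held 41.7% and 88.9% of its UMIs there. Hbb-bt, also on the erythroid list, was higher by value in young and lower in old S-gene-high than in non-cycling cells.

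In promoters, an E2F word was present in 43 of the 142 genes (30.3%) with a window among the 173 that were higher in both libraries, in 0 of 50 (0%) among the 60 lower ones, and in 5.79% of all genes measured. In the replication lists 32 of 96 genes with a window (33.3%) had one. The CHR word was in 16.9% of the higher genes, near the 14% of genes measured, and in 73.7% of 19 mitosis genes. The CCAAT box, a general promoter element, was in 57.7% of the higher, 52% of the lower and 41.9% of the genes measured. A gene with several starts counted when any of its windows held the word.

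Old and young S-gene-high cells were then compared with each other. Their replication genes were level: 0 of 105 were over 2-fold higher or lower in old cells, against a background of 44 of 6092 genes (0.722%) higher and 42 (0.689%) lower, and the median log2 ratio of old over young was 0.00, with a range of -0.49 to 0.53. In non-cycling cells the same 105 genes had a median of -0.19, with 2 over 2-fold higher and 2 lower. The background there was 45 of 6092 genes higher and 36 lower, with a median of -0.08. The median over all genes was -0.04 in S-gene-high cells. Counts over all genes there moved with the CPM minimum and with thinned cells, as given in the last section. Mcm3 was 338 CPM in young and 303 in old, Pcna 253 and 247, and Dnmt1 245 and 257 CPM. The same limit on S-phase UMIs chose the cells at both ages and these genes vary with it, so their level values describe the class and carry no test.

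Genes that mark aged HSCs summed to more in old cells in this class as well. Over the 99 genes found in the files, of 100 markers that the study took from a public dataset and not from these samples, the sum was 2545 CPM in old and 934 in young S-gene-high cells, and 4162 and 1311 CPM in non-cycling cells. Only 32 of them reached 20 CPM in S-gene-high cells of either age. A marker such as Mt2 or Rorb passed this minimum only through the old cells, where it was high, so the filter itself favours higher values and the following are a description of the genes that passed, not of the list. Of these 32, 22 were over 2-fold higher in old and 0 over 2-fold lower, with a median log2 ratio of 1.32. In non-cycling cells they had a median of 1.70, with 23 over 2-fold higher. Of all 6092 genes measured 45 were over 2-fold higher there, with a median of -0.08.

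Among genes with at least 20 CPM in S-gene-high cells of either age, the 10 with the largest old over young ratios were Mt2, Rorb, Gem, Plscr2, Mt1, Clca3a1, Ramp2, Arhgef28, Gstm2 and Selp. All of these but Arhgef28 are on the list of aging markers. The metallothionein Mt1 was 247 CPM in old and 32.7 in young S-gene-high cells, and was seen in 82.8% of old against 32.5% of young cells. Its relative Mt2 was 29.4 CPM in old cells against 0.578 CPM from 2 UMIs in young cells, a log2 ratio of 5.67 (3.76 to 8.74). Selp (P-selectin), an adhesion receptor of platelets and vessels, was 53.9 against 11.3 CPM, a log2 ratio of 2.26 (1.73 to 2.81). Plscr2, a phospholipid scramblase gene, was 73.1 against 6.65 CPM. Rorb, an orphan nuclear receptor gene, was 20.4 CPM in old and 0.867 CPM from 3 UMIs in young cells. The GTPase gene Gem, 39.6 against 3.18 CPM, had 1 old cell with 26 of its 97 UMIs. Clu (clusterin) was 40.8 CPM in old and 20.2 in young S-gene-high cells, a log2 ratio of 1.01 (0.56 to 1.48), against 1.69 in non-cycling cells. The oxysterol receptor Gpr183 was 16.3 CPM in old cells and 0.578 CPM from 2 UMIs in young cells, and 73.7 and 2.88 CPM in non-cycling cells. The CD150 gene Slamf1 was 27.4 CPM in old and 37.0 in young S-gene-high cells, with an interval of the log2 ratio from -0.88 to 0.00.

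**Figure D4:**
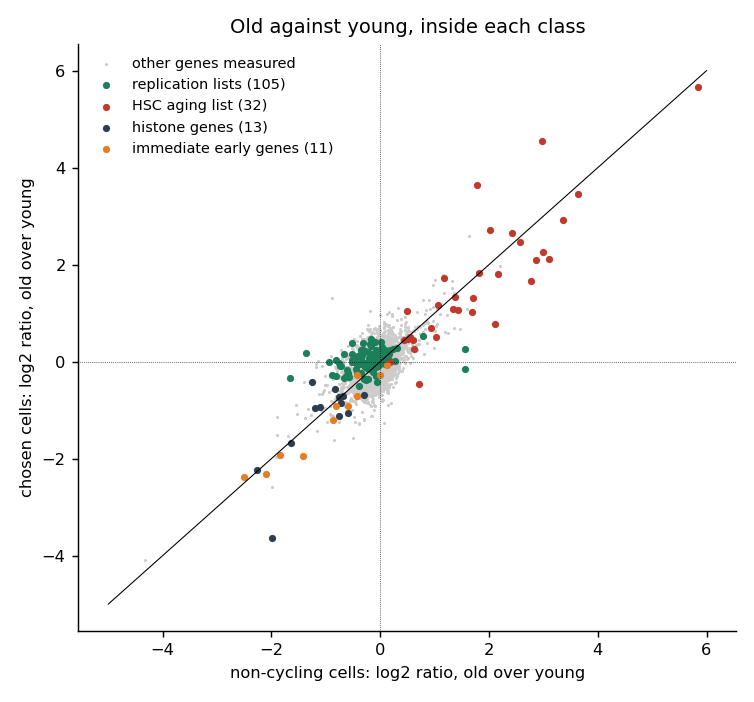
Log2 ratio of CPM in old over young cells for each gene, in non-cycling cells (x axis) and in S-gene-high cells (y axis), with the line of equal ratios, 1 library per age. The 105 replication genes (green) sit near 0 on the y axis, the 32 aging markers (red) mostly above 0, and histone (dark blue) and immediate early genes (orange) below 0 on the y axis.

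Lower in old S-gene-high cells were Plac8, H1f5, Socs2, Fosb, Fos, Hist1h2ap, Ms4a6c, Egr1, Dusp1 and H2ac8, the 10 smallest ratios among genes with at least 20 CPM at either age. Plac8, a gene of myeloid and lymphoid progenitors, was 5.72 CPM in old against 97.7 in young cells, a log2 ratio of -4.09 (-4.98 to -3.33). Socs2, a feedback inhibitor of cytokine signalling, was 8.99 against 53.8 CPM. Of the immediate early genes Fos was 45.3 against 225 CPM, Fosb 25.7 against 135 and Egr1 33.5 against 128, and 5 of 11 measured members were over 2-fold lower, against 0.689% of all genes measured, with a median of -0.92. Of 13 measured histone genes 5 were over 2-fold lower, with a median of -0.94. Some of them, such as H1f5 at 20.2 CPM in young and 1.63 in old cells, reached the 20 CPM minimum only through the young cells, and these counts do not cover the rest of their lists. Hist1h2ap was 34.3 against 161 CPM and H2ac8 52.7 against 169. Close paralogs in the histone clusters can share reads, so single histone genes are uncertain. Of the 44 genes higher and 42 lower in old S-gene-high cells, 32 and 18 were also over 2-fold apart in non-cycling cells in the same direction, and 42 and 41 had the same sign there. The markers of sort-excluded and other cell types moved with age too: Cd34 at a log2 ratio of -0.82, Hbb-bt at -1.58 and Prtn3 at 0.79. Csf3r, the other measured granulocyte-monocyte gene, went the other way, at -0.57. In S-gene-high cells 5 cells held 40.2% of the young and 74.3% of the old Hbb-bt UMIs. The part of these markers in the differences above was not tested.

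In bulk HSCs, which the rule did not use, the genes that define the cells were lower with age. Of 11279 genes tested with limma on log2(FPKM + 1) at an adjusted p under 0.05 and a fold change over 2, 217 (1.92%) rose and 195 (1.73%) fell in old HSCs, and 6 of the 7 S-phase rule genes fell. FPKM are fragments per kilobase of transcript and per 1000000 fragments. The p-values measure the spread between the 3 libraries of each group, and in bulk RNA fewer cells of a type and less RNA per cell cannot be told apart.

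Ccne2 was 16.5, 15.7 and 15.7 FPKM in the young and 4.17, 2.38 and 4.62 in the old libraries, so the groups did not overlap, and fell by 1.88 on the log2 scale (SE 0.239, limma adjusted p = 0.000872). Chek1 was 27.4, 23.3 and 21.7 FPKM in young and 6.80, 5.32 and 11.5 in old HSCs, a log2 change of -1.56 (SE 0.247, limma adjusted p = 0.00356). Mcm5 was 34.7, 32.0 and 37.2 against 18.0, 5.33 and 18.1 FPKM (log2 change -1.43, SE 0.347, limma adjusted p = 0.0317), with the second old library lowest. That library was lowest of the old ones for each rule gene but Uhrf1. Hells was 32.3, 28.6 and 29.1 against 18.3, 8.65 and 12.7 FPKM (log2 change -1.18, limma adjusted p = 0.0114). Uhrf1 was 10.0, 9.63 and 7.59 against 3.46, 4.14 and 3.22 FPKM, and E2f1 4.55, 4.74 and 4.63 against 1.83, 1.36 and 1.63 FPKM, with limma adjusted p = 0.0134 and 0.0175. These 6 genes were higher in every young than in every old library. The share of all tested genes that separated in this way was not counted. Ung, at 2.47, 1.15 and 0.925 against 0.829, 0.415 and 1.16 FPKM, overlapped between groups and did not pass (limma adjusted p = 0.492). Of the 6 calls only those of Ccne2 and Chek1 held without any 1 library. Without the first young library Uhrf1, E2f1, Hells and Mcm5 lost the call (limma adjusted p = 0.0595, 0.0585, 0.0517 and 0.101), without the second young one Uhrf1, E2f1 and Mcm5 (0.0548, 0.0608 and 0.0833), and without the third E2f1 and Mcm5 (0.0502 and 0.0720). Without the second old library E2f1 lost it (0.0599), and Hells and Mcm5 were under the fold limit at log2 changes of -0.93 and -0.90. Without the third old library Uhrf1 and E2f1 lost it (0.0524 and 0.0559). When every gene above 0 in a library was tested, 0 of the 6 passed (limma adjusted p = 0.0551 for Ccne2 to 0.323 for Mcm5), at the same log2 changes.

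**Figure D5:**
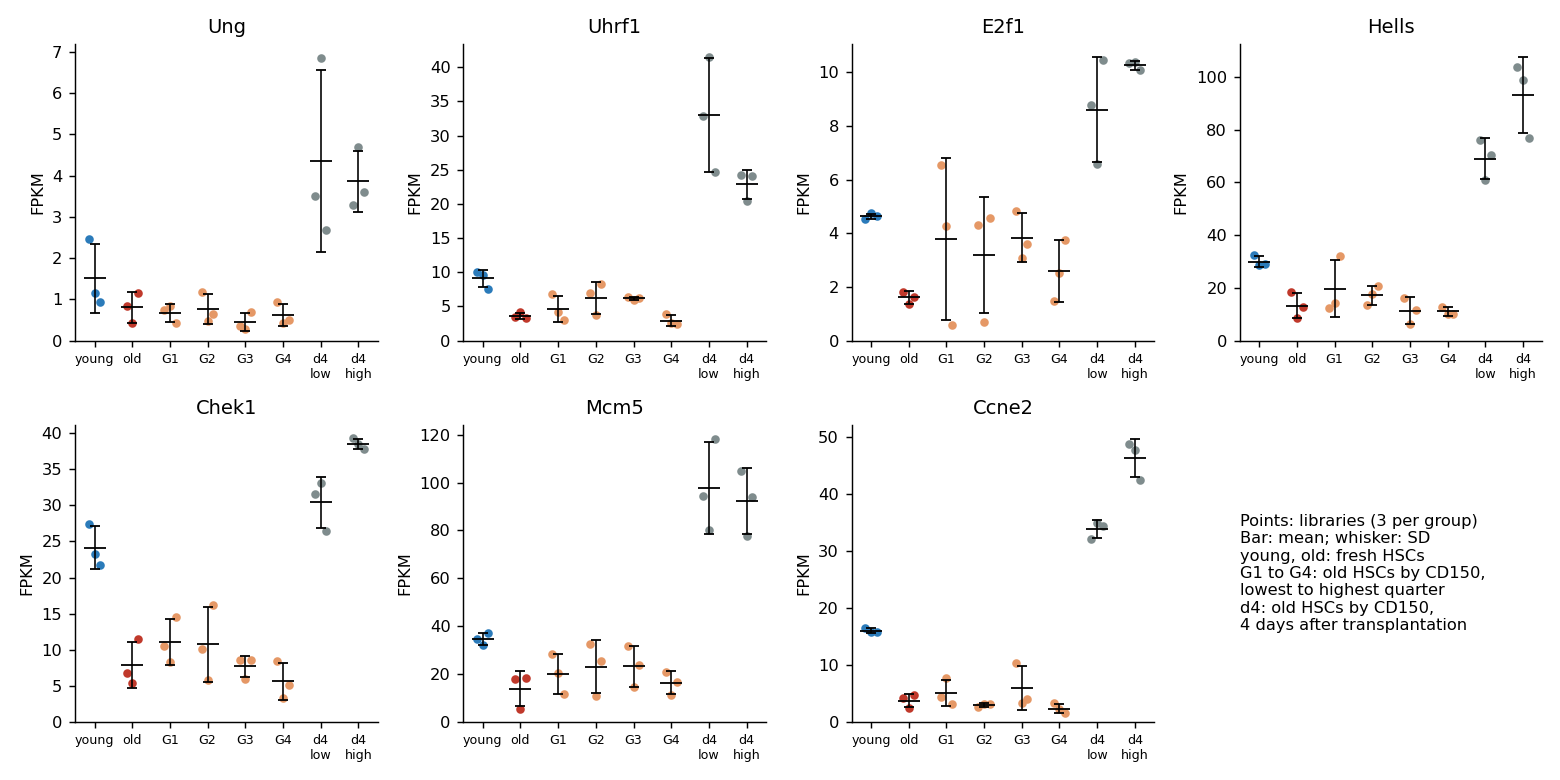
FPKM (y axis, from 0) of the 7 S-phase rule genes in each bulk library (points) of 8 groups with 3 libraries each, with mean (bar) and SD (whiskers). Each gene but Ung was higher in all 3 young than in all 3 old libraries, and the share of all genes that did so was not counted. Neighbouring CD150 groups overlapped, and the day 4 libraries were above all fresh old ones.

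Over the replication lists 23 of 117 tested genes fell in old bulk HSCs and 1 rose, and the median log2 change was -0.65, against 0.01 over all genes, with 12 of 117 above 0. The number of falls was 9 without the first young library, 15 without the third young or the second old one, and 0 when every gene above 0 in a library was tested. By role, 8 of 21 fork protection and repair genes, 3 of 11 nucleotide supply, 3 of 15 chromatin copying, 2 of 14 licensing, 2 of 9 initiation, 2 of 12 polymerase, 1 of 15 clamp and lagging strand and 2 of 20 cyclin and E2F genes fell. The 3 largest falls were those of Ccna2 (log2 change -1.998, limma adjusted p = 0.0276), Tk1 (-1.89, limma adjusted p = 0.0117) and Dscc1, which helps load the sliding clamp (-1.59, limma adjusted p = 0.00248). Tk1 was 49.4, 42.3 and 44.0 FPKM in young and 25.4, 5.75 and 9.75 in old libraries. The gene that rose was Rb1, the retinoblastoma protein that holds E2F, at 43.8, 39.2 and 43.4 against 67.1, 94.6 and 98.4 FPKM (log2 change 1.01, limma adjusted p = 0.0028). Of 22 mitosis genes 13 fell, and of 56 tested histone genes 18, with medians of -1.43 and -1.13. Slamf1, Clu and Gpr183 rose by 1.15, 3.08 and 4.83 on the log2 scale. Of 6 tested macrophage genes 3 fell as well: C1qa was 3.64, 1.33 and 3.43 FPKM in young and 0, 0.345 and 0 in old libraries, while Lyz2, the most abundant, was 629 to 639 and 584 to 659 FPKM and the list's sum 652 to 664 and 596 to 667. The erythroid list summed to 1090.0 FPKM in the first old library, against 95.1 and 162 in the other old and 137, 195 and 183 in the young libraries, and without that library 27 replication genes fell. Of the 4 progenitor surface genes, all tested, 2 fell and 0 were above 0, with a median log2 change of -1.21. Of 8 tested erythroid genes 1 fell, of 7 megakaryocyte genes 1 rose and 2 fell, of 3 granulocyte-monocyte genes 1 rose and 1 fell, and 1 of 2 lymphoid genes fell. The part of macrophages and of these other cells in the falls above was not tested.

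Within old HSCs no replication gene passed a linear test across CD150 groups in the main fit, which left out the mouse. Of 11673 genes 32 (0.274%) rose and 13 (0.111%) fell with a linear term from G1 to G4, and 0 of 118 replication genes did either, while Slamf1 itself rose by 0.61 per group step (limma adjusted p = 0.00138) (at unadjusted p under 0.05 the term called 699 and 677 of all genes). Their median slope was -0.10 per group step on the log2 scale, with 24 of 118 above 0. The 6 S-phase rule genes tested had slopes of -0.31 to -0.02 (limma adjusted p = 0.300 to 0.963), and Ung was below the filter. The summed FPKM of the rule genes was 69.5, 59.9 and 65.1 in G1, 71.1, 42.3 and 78.9 in G2, 78.4, 39.3 and 58.1 in G3 and 51.4, 32.3 and 40.2 in G4, in mouse order. Neighbouring groups overlapped, while G4 was below G1 in 3 of 3 mice and all G1 were above all G4 libraries. The labels give the same 3 mice in each group. With the mouse as a replicate block 1 replication gene rose and 1 fell, the transcription factor gene Mycn at a slope of 0.61 (limma adjusted p = 0.0189) and Prim1 at -0.27 (limma adjusted p = 0.0363). Calls over all genes under this block are not given here, so these calls are not set against a background share. The G1 library of mouse 3 and the G2 library of mouse 2 stood apart, with E2f1 at 0.571 and 0.702 FPKM against 4.27 to 6.55 and 4.29 to 4.58 in the other libraries of their groups. Their highest correlation was with each other (r = 0.961 across genes), although they differ in group and mouse, and an exchange of labels was not tested. Without both, 103 genes rose and 56 fell, among them 2 replication genes up (Mycn, Rb1) and 5 down (Clspn, Mcm3, Rfc2, Rrm1, Slbp). Mycn, Rrm1 and Slbp are named because they were called and not by the rule for named genes.

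At 4 days after transplantation the summed FPKM of the 7 rule genes was 279, 264 and 288 in CD150low and 335, 298 and 289 in CD150high old HSCs, against 53.3, 27.6 and 52.9 in fresh old and 128, 115 and 117 in fresh young HSCs. No test was run between fresh and transplanted libraries, since the groups differ in handling and host. Between CD150high and CD150low at day 4, limma called 0 of 11077 genes higher (0%) and 0 lower (0%), with 442 and 384 at an unadjusted p under 0.05, and replication genes had a median log2 change of 0.10. Macrophage genes were present in these libraries, with C1qa at 53.2, 21.7 and 8.49 FPKM in CD150low and 46.0, 16.8 and 45.4 in CD150high, and the macrophage list summed to 425 to 904 FPKM, against 466 to 667 in fresh libraries. The erythroid list summed to 886, 623 and 899.8 FPKM in CD150low and 799, 1032 and 739 in CD150high, against 41.2 to 195 in the fresh libraries other than the first old one. The part of these cells in the rule gene values was not tested.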

How the data were processed

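The authors made the single-cell counts with Cell Ranger 3.0.2 (mm10, protein-coding genes of Ensembl) and deposited UMI counts per gene and cell. Bulk reads (SMART-Seq v4) were trimmed with Trim Galore, aligned to mm10 with HISAT2 2.0.0 and counted with HTSeq 0.12.4 without regard to strand, so overlapping genes are uncertain, and DESeq2 1.22.2 was used for normalization and testing. The deposited bulk values, used here, are FPKM and not these counts, in tables of 21835 rows, with repeated symbols summed to 21825. The sample records also name Cufflinks, without a version. Read totals are not given. The spacing of low values put relative depths at 0.52 to 1.17, and 10362 to 11215 genes had at least 1 FPKM.

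The cell rule and all gene lists were chosen with earlier results of these data known, so nothing here is independent of them. The 100 aging markers are the study's list from a public dataset, and 99 were found in the files (Sdpr as Cavin2, Tmem56 as Tlcd4). The other lists were written by hand. Kept cells were summed by class and library into CPM (counts per 1000000) with numpy 2.4.6 and scipy 1.17.1. Kept young cells held 17149268 UMIs and old cells 38686144, chosen cells 3460686 and 2448623. A class ratio against 0 counts was taken against a floor of 3 UMIs. Doublets were called with Scrublet (scanpy 1.11.5) and left in. Bulk values were tested with limma 3.58.1 (R 4.3.3, trend, two-sided, Benjamini-Hochberg) on log2(FPKM + 1) for genes with a group mean of at least 1 FPKM, a scale that understates changes of low genes. Nothing says that replicate numbers of young and old mice mark pairs (same-number correlations of deviations 0.107, 0.037 and 0.028), while those of the CD150 groups name the mouse.

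Genes named are the rule genes, up to 4 per list with the most UMIs in the chosen cells, the 10 largest and 10 smallest ratios of each single-cell comparison, the 3 largest rises and falls among called replication genes, and Slamf1, Clu and Gpr183. One gene that the rule names is not reported here. Alternatives changed the UMI limits, the CPM and FPKM minimum, the pseudocount, cell depth, doublets, the replicate block and each bulk library. Scripts were tested on simulated data. Other data types of the series were not analysed here. No column of another series' samples was found (0).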

Additional observations from a re-analysis of the deposited data

Results flagged for a closer look

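Flagged were 3 genes whose ratio of S-gene-high over non-cycling cells had opposite signs at the 2 ages. Other genes had opposite signs too, such as H1f5 at log2 ratios of 1.38 (young) and -0.26 (old) and Csf3r at 0.18 and -0.51. Each age was 1 library, so the difference was not tested. Cavin2 (listed among the aging markers as Sdpr), a caveola gene, was at a log2 ratio of 0.60 in the young and -0.50 in the old library, from 41.7 to 63.3 CPM and from 284 to 201 CPM. The beta-globin gene Hbb-bt was at 0.48 and -0.59, but 5 cells held 40.2% of its young and 74.3% of its old UMIs in the class. The lipoprotein receptor gene Vldlr was at 0.43 and -0.73.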

How the results depend on the processing

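The share of S-gene-high cells moved with the limits. It was 17.9% of young and 5.55% of old cells with an S-phase sum of at least 4. With at least 8 it was 3.48% of old and just under 12.1% of young cells. In young cells it was 12.1% with a mitotic sum under 5 and 10.96% after thinning. Young exceeded old under each. With a minimum of 50 CPM, 98 genes were higher and 23 lower in S-gene-high than in non-cycling cells of both libraries and 18 and 16 higher and lower in old S-gene-high cells; with 10 CPM, 117 were lower, and 96 and 108 with age; with thinned cells 112 and 158 with age. In bulk, counts of calls moved as follows. For age, testing every gene above 0 gave 50 rises and 11 falls, 0 and 0 of them replication genes. For the CD150 groups, a pseudocount of 0.1 gave 8 falls, and every gene above 0 gave 16 rises and 1 fall. The replicate block gave 1 and 1 replication genes, with its calls over all genes not given here. Leaving out both libraries that stood apart, an alternative chosen after seeing the data, gave 103 rises and 56 falls with 2 and 5 replication genes. At day 4, every gene above 0 gave 2 falls and the replicate block 2 rises and 1 fall. Leaving out 1 library at a time gave 154 to 212 rises and 113 to 218 falls with age (replication genes 0 to 2 and 9 to 27), 18 to 34 and 4 to 14 over the CD150 groups (0 to 1 and 0 to 0), and 0 to 2 and 0 to 8 at day 4. The replicate block changed no call of a rule gene with age, where numbers mark no pairs. With age the call was lost for E2f1 in 6 of 9 alternatives, Mcm5 in 5 of 10, Uhrf1 in 4, Hells in 3, Chek1 in 1 and Ccne2 in 1, with limma adjusted p up to 0.0764, 0.323, 0.0826, 0.165, 0.112 and 0.0551 in this order. The cause of these moves was not tested. No called value changed sign. Among rule genes that passed no test, the slope of E2f1 over the CD150 groups was 0.03 with a pseudocount of 0.1 and between -0.20 and 0.10 (positive values 0.03, 0.06 and 0.10) leaving out 1 library, that of Mcm5 was between -0.17 and 0.02, and at day 4 Mcm5 was between -0.21 and 0.07 and Ung between -0.30 and 0.25. Each age had 1 single-cell library, so depth limits genes with few UMIs and no spread between mice is known.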
